A study of Mus musculus with 20 samples.

Results

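Palmitoylation is the attachment of the fatty acid palmitate to cysteines of proteins. The 31 genes described here code for the other enzymes of this reaction and of its reversal, beside Zdhhc9, the transferase gene altered in these mice. They were taken by symbol as a fixed list with no threshold on a measured value, though earlier results of these data were known by then. All 31 were found, each as 1 of the 46517 rows of the gene table. The list holds 21 transferases of the Zdhhc family, 9 enzymes that remove palmitate or are related to such enzymes, and Selenok. The study compared Zdhhc9 knockout with wild-type mice in 2 white matter tracts, the optic nerve and the corpus callosum, by RNA sequencing of 20 libraries. There were 5 libraries of Zdhhc9 knockout optic nerve and 4 of wild-type optic nerve, 6 of Zdhhc9 knockout corpus callosum and 5 of wild-type corpus callosum. Tissue was flash frozen after isoflurane anaesthesia, and the callosum was cut out of frozen coronal brain sections. The sample labels call the mice knockout while the design text calls them knockdown, and neither the altered part of the gene nor age, sex or strain is given in the sources used here. Each library carries a sample number, but the labels do not say that each is a separate animal, so p-values measure the spread between these samples.

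A palmitoyl transferase first loads palmitate from palmitoyl-CoA onto the cysteine of its own Asp-His-His-Cys (DHHC) motif and then hands it to a cysteine of its substrate, which ties that protein more firmly to membranes. Thioesterases cut the bond again, so that many signalling and synaptic proteins cycle on and off membranes, and the lysosomal thioesterase Ppt1 removes the fatty acid when such proteins are broken down. Loss of PPT1 in people causes the infantile form of neuronal ceroid lipofuscinosis, a lysosomal storage disease of the brain.

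The coding sequence around the active site is shown for the members on which the results below turn. Capitals mark the 4 codons of the transferase motif or, in the last 2 entries, the 5 codons of the Gly-X-Ser-X-Gly motif around the catalytic serine of a thioesterase.
Zdhhc22: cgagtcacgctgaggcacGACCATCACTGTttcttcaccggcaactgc
Zdhhc23: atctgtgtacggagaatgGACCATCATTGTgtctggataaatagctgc
Zdhhc2: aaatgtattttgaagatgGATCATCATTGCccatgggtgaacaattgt
Zdhhc15: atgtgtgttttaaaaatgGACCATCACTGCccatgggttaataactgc
Zdhhc20: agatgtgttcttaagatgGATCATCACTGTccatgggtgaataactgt
Zdhhc8: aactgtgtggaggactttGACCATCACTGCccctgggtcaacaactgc
Zdhhc13: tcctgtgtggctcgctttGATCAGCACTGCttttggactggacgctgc
Ppt1: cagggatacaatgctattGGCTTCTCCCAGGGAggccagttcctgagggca
Abhd17b: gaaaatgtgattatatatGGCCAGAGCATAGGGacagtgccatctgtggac
All 21 transferase genes carried the motif, 20 as Asp-His-His-Cys and Zdhhc13 with a glutamine codon in the second place. The codon after the motif was for proline in 13 of the 21 genes, Zdhhc2, Zdhhc8, Zdhhc15 and Zdhhc20 among them, for phenylalanine in Zdhhc22 and Zdhhc13, and for valine in Zdhhc23 and Zdhhc4. The windows of Zdhhc2 and Zdhhc15, which belong to one subfamily with Zdhhc20, were identical at 37 of 48 bases (77.1%). The window of Zdhhc20 matched that of Zdhhc2 at 40 bases (83.3%) and that of Zdhhc15 at 39 (81.2%). The median over all 210 pairs of transferases was 64.6%. This likeness was not particular to the subfamily. Zdhhc16 matched Zdhhc2 at 38 bases and Zdhhc20 at 40, and Zdhhc7 matched Zdhhc2 and Zdhhc15 at 38 and Zdhhc20 at 39. Sequences and positions are from the GENCODE M21 transcripts on GRCm38, the assembly also called mm10, which is the build in the submitters' processing notes. In Zdhhc22 the capital bases lie at chr12:86988344-86988355 on the minus strand, in exon 2 of 3, and in Zdhhc23 at chr16:43973473-43973484 on the minus strand, in exon 3 of 5. Those of Zdhhc2 lie at chr8:40456679-40456690 on the plus strand, in exon 7 of 14, and those of Zdhhc15 at chrX:104572510-104572521 on the minus strand, in exon 6 of 12. Those of Zdhhc20 lie at chr14:57857633-57857644 on the minus strand, in exon 6 of 13, those of Zdhhc8 at chr16:18228214-18228225 on the minus strand, in exon 4 of 11, and those of Zdhhc13 at chr7:48817206-48817217 on the plus strand, in exon 13 of 17. The serine motif of Ppt1 lies at chr4:122844520-122844534 on the plus strand, in exon 3 of 9, and that of Abhd17b at chr19:21680902-21680916 on the plus strand, in exon 3 of 4.

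Total estimated counts ran between 18837907 and 25866142 in knockout optic nerve, 22299837 and 26095622 in wild-type optic nerve, 17333746 and 25028817 in knockout callosum, and 15401130 and 25375187 in wild-type callosum. Zdhhc9 itself lay between 35.1 and 51.4 CPM (counts scaled to library size) in knockout optic nerve against 115 to 150.4 CPM in wild-type optic nerve, and between 40.8 and 56.0 CPM in knockout callosum against 152.9 to 201 CPM in wild-type callosum. The callosum sample numbers came in 2 formats, with 6 or 7 digits in 4 knockout and 3 wild-type libraries and with 2 digits in 2 libraries of each genotype, and the labels do not say what the format stands for. In the optic nerve, knockout libraries KO_ON_48038A7 and KO_ON_48118A4 had numbers with a letter, while all others of both genotypes had 6 digits. There the format is partly confounded with genotype, and no fit took it into account. Markers of oligodendrocytes, the cells that make myelin in both tracts, were high, and their 12 genes summed to between 34510 and 94630 CPM in the 20 libraries. Neuron markers, 12 genes from other cells that the dissection can carry along, summed to medians of 323 CPM in knockout optic nerve and 292 CPM in wild-type optic nerve, and to 3572 CPM in knockout callosum and 1844 CPM in wild-type callosum. Callosum libraries differed widely in them, from 1186 to 4660 CPM.

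The members covered a wide range of levels, and those at the top were much the same in the 4 groups, while Zdhhc2 moved between rank 15 and rank 24 and Zdhhc12 between 15 and 20. Levels of different genes were compared per kilobase of exon, scaled to one common total in every library. Selenok, an endoplasmic reticulum selenoprotein that is the cofactor of Zdhhc6, was first in all 4 groups, with a level per kilobase of 213 ± 17.4 in knockout optic nerve, 236 ± 8.46 in wild-type optic nerve, 187 ± 20.3 in knockout callosum and 219 ± 24.9 in wild-type callosum (SD, n = 5, 4, 6 and 5). Abhd17a, a membrane-bound depalmitoylase of N-Ras and PSD-95, was second in all 4 groups, and Ppt1 was at rank 3 or 4. Zdhhc20, which in human cells palmitoylates the epidermal growth factor receptor, and Zdhhc17, an ankyrin-repeat transferase that binds huntingtin, were the highest transferases in every group except knockout optic nerve, where Zdhhc8 at 44.3 ± 3.94 came before Zdhhc17 at 42.0 ± 6.06. With the longest transcript as the length, Zdhhc4 at 54.8 in knockout and 51.8 in wild-type optic nerve came before Zdhhc17 at 41.9 and 43.4, and Ppt1 at 122.2 came before Abhd17a at 121.5 in wild-type optic nerve. Leaving aside Zdhhc11, Zdhhc19 and Zdhhc25, the least expressed members were Zdhhc22 and Zdhhc23 in the optic nerve and Zdhhc15, Zdhhc22 and Zdhhc23 in wild-type callosum. Zdhhc22 was near the floor in the optic nerve, averaging 0.55 CPM in the knockout and 0.35 CPM in the wild type. In knockout callosum Zdhhc15, Zdhhc23 and Lyplal1, a relative of the acyl-protein thioesterases, were lowest, just under Zdhhc22. Neighbours in the order mostly overlapped: of the 30 neighbouring pairs, the libraries were apart in 8 in knockout optic nerve, 9 in wild-type optic nerve, 2 in knockout callosum and 3 in wild-type callosum.

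**Figure D1:**
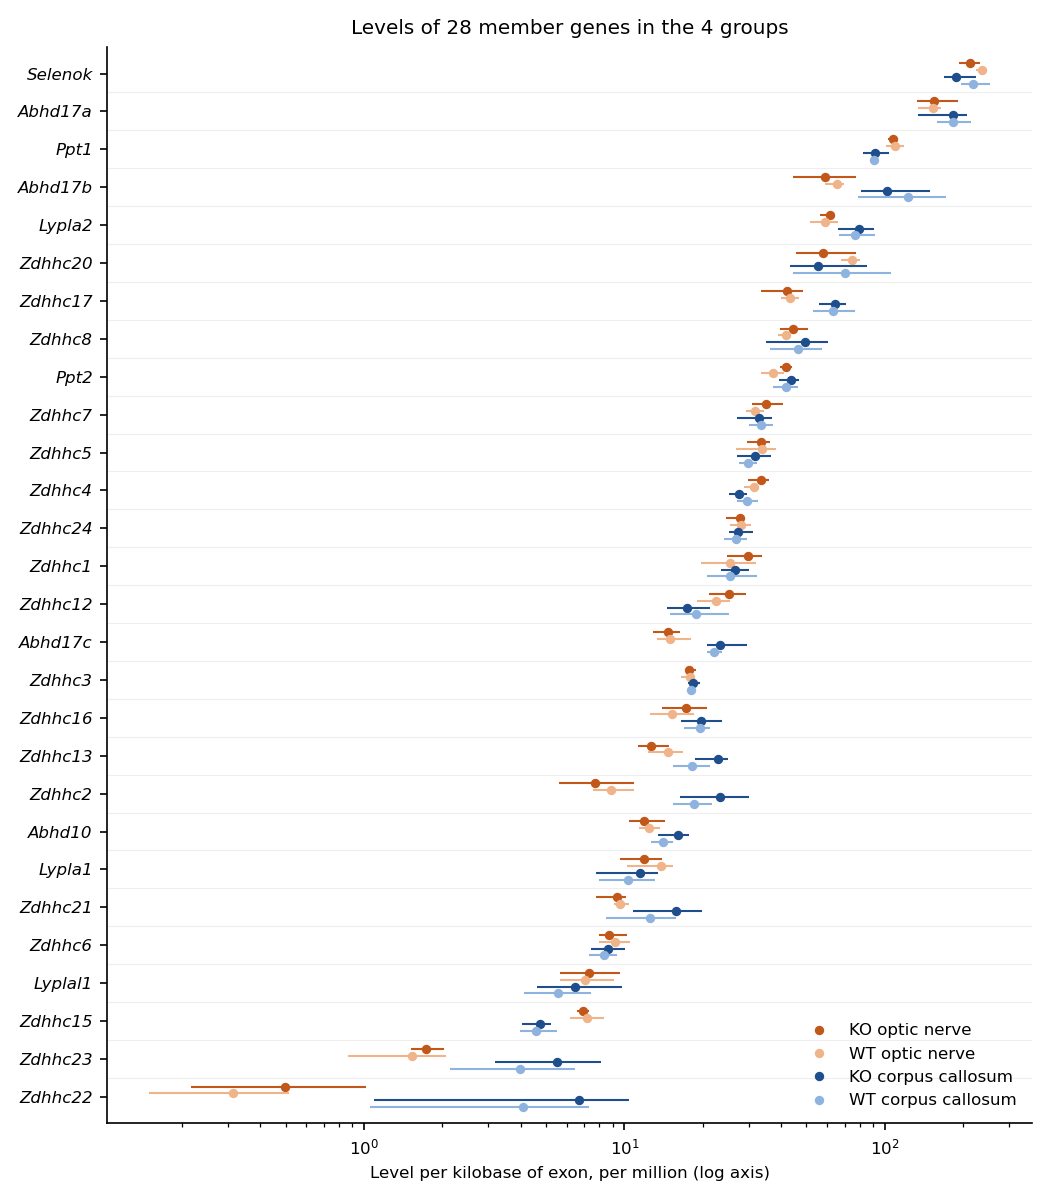
Mean level per kilobase of exon, scaled to the same total in every library (log axis, points), and the range over libraries (lines) of 28 members in the 4 groups, with optic nerve above callosum and knockout above wild type within each tissue. Selenok and Abhd17a lie at the top in all 4 groups, and Zdhhc22 and Zdhhc23 lie at the bottom in the optic nerve.

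Of the 31 members, 3 were at or near 0. Zdhhc25 had no count in any of the 20 libraries, which allows up to 3 counts over all of them. Zdhhc11 had 2 counts in all, in 2 libraries, and Zdhhc19 had 30 counts over 15 libraries. These 3 were not tested in any comparison, and Zdhhc22 was too low to be tested between genotypes in the optic nerve, so 27 members were tested there and 28 elsewhere. Summed over the 21 transferases, the level was 658 ± 26.4 CPM in knockout optic nerve against 694 ± 16.8 CPM in wild-type optic nerve, and 666 ± 24.6 CPM in knockout callosum against 684.5 ± 74.6 CPM in wild-type callosum. The 9 thioesterases and their relatives summed to 374.5 ± 6.85 CPM in knockout optic nerve against 385 ± 6.79 CPM in wild-type optic nerve, and to 381 ± 17.9 CPM in knockout callosum against 400 ± 39.1 CPM in wild-type callosum (SD, n as above).

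In the optic nerve no member passed the test between knockout and wild type, and every one of the 27 tested had a log2 fold change within 0.5 of 0, as did 94.4% of all genes. edgeR's quasi-likelihood test with Benjamini-Hochberg adjustment over all genes tested, the source of each p below unless another tool is named, called 0 of 27 members at an adjusted p under 0.05, beside 0.0129% of all genes. DESeq2 and limma-voom with sample quality weights (weighted limma-voom) also called 0 members. At an unadjusted p under 0.05 there were 2 members, Zdhhc20 and Selenok, which is 7.41% of those tested beside 5.48% of all genes. The 95% interval of the log2 fold change lay within -0.5 and 0.5 for 19 members (70.4%, beside 59.7% of all genes) and within -1 and 1 for all 27 tested (beside 86.5% of all genes).

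Zdhhc20 had 102, 103, 114, 139.7 and 166 CPM in knockout optic nerves, against 144, 167, 168.5 and 178.5 CPM in wild-type optic nerves. Of the knockout libraries 4 lay under all the wild-type ones and the fifth lay among them. The log2 fold change was -0.41 (SE 0.15, 95% interval -0.75 to -0.07, unadjusted p = 0.0218, adjusted p = 0.845). Selenok had 111, 116, 125, 126 and 128 CPM in knockout optic nerves, against 130.4, 135, 136 and 141 CPM in wild-type optic nerves. Its groups did not overlap, as was so for 2.05% of all genes, and it was the 1 member of 27 (3.7%) of which this held. The difference was small (log2 fold change -0.18, SE 0.08, unadjusted p = 0.043, adjusted p = 0.845). The partner of Selenok, Zdhhc6, which palmitoylates calnexin in the endoplasmic reticulum, had a log2 fold change of -0.11 (SE 0.10).

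The knockout library lowest in Zdhhc20, KO_ON_719856, also stood apart in cell markers, with 5 retinal markers at 79.9 CPM against 23.4 to 28.9 CPM in the other 8 optic nerves, 7 microglial markers at 1321 CPM against 829.5 to 1084 CPM, and 12 oligodendrocyte markers at 60570 CPM against 74370 to 94630 CPM. Without it the log2 fold change of Zdhhc20 was -0.34 (SE 0.15, adjusted p = 0.976). Between the genotypes the neuron markers had a median log2 fold change of 0.54 and the 4 retinal markers tested one of 1.33, with none called by edgeR and 2 of each at an unadjusted p under 0.05; DESeq2 called 1 neuron and 0 retinal markers and weighted limma-voom 0. The part of retinal cells and microglia in the optic nerve values was not tested. With oligodendrocyte marker level in the fit Zdhhc20 was at -0.30 (SE 0.11), and with neuron marker level at -0.49 (SE 0.18).

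Zdhhc13, an ankyrin-repeat transferase close to Zdhhc17, had 8.27, 8.40, 9.15, 9.40 and 10.4 CPM in knockout optic nerves, against 9.08, 10.4, 11.6 and 11.97 CPM in wild-type optic nerves. The groups overlapped (log2 fold change -0.26, SE 0.13, adjusted p = 0.845). Lypla1, the cytosolic acyl-protein thioesterase 1, had 20.95, 23.8, 25.2, 28.8 and 28.9 CPM in knockout optic nerves, against 22.5, 31.3, 32.45 and 33.7 CPM in wild-type optic nerves. A single wild-type library lay among the knockout ones, and the log2 fold change was -0.25 (SE 0.14, adjusted p = 0.845). Ppt2, a second lysosomal thioesterase, had 30.6, 32.5, 32.9, 33.4 and 35.4 CPM in knockout optic nerves, against 26.8, 27.1, 31.5 and 32.7 CPM in wild-type optic nerves. These groups overlapped too (log2 fold change 0.14, SE 0.09, adjusted p = 0.845), and 33.9% of the 31-base words of Ppt2 transcripts also occur in the readthrough gene Gm20460, so counts can be split between them. Of the Lypla1 words 11.8% occur in other genes, mainly Gm37988, and of the Selenok words 12.8%, mainly in its pseudogenes.

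In the corpus callosum the test again called no member, 0 of 28 beside 0.0387% of all genes, and 27 of the 28 members had a log2 fold change within 0.5 of 0 (96.4%, beside 89.7% of all genes). DESeq2 called 0 members as well, while weighted limma-voom called 3 of 28 members (10.7%, beside 18% of all genes), with Zdhhc13 higher and Zdhhc20 and Selenok lower in the knockout. At an unadjusted p under 0.05 edgeR had 2 members, Zdhhc13 and Selenok (7.14%, beside 11.7% of all genes). No member's groups were apart, as 0.889% of all genes had them. The 95% interval lay within -0.5 and 0.5 for 19 members (67.9%, beside 49.6% of all genes) and within -1 and 1 for 27 (96.4%, beside 83.4%). The median size of the log2 fold change was 0.07 for the members and 0.15 for all genes. Since these are bulk samples, fewer cells of a type and less RNA per cell cannot be told apart in any of these values.

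Zdhhc13 had a lowest, median and highest level of 11.9, 14.8 and 16.5 CPM in knockout callosa, against 10.6, 10.85, 10.97, 13.15 and 13.9 CPM in wild-type callosa. Of the 6 knockout libraries 4 lay above all the wild-type ones (log2 fold change 0.28, SE 0.11, unadjusted p = 0.0281, adjusted p = 0.397). It was 0.16 (SE 0.15) among libraries with longer numbers and 0.53 (SE 0.16) among those with 2 digits. Selenok had 81.2, 92.1 and 114 CPM as lowest, median and highest in knockout callosa, against 95.4, 101, 106, 127 and 137 CPM in wild-type callosa. The groups overlapped (log2 fold change -0.29, SE 0.12, unadjusted p = 0.0300, adjusted p = 0.403), with -0.19 among the longer numbers and -0.35 among the 2-digit ones. Zdhhc20 had 82.0, 89.0 and 165 CPM as lowest, median and highest in knockout callosa, against 88.3, 108, 115, 168 and 218 CPM in wild-type callosa. The spread within each genotype was wider than the difference between them (log2 fold change -0.42, SE 0.25, 95% interval -0.96 to 0.13, adjusted p = 0.512), and within the formats it was -0.30 (SE 0.11) for longer and -0.39 (SE 0.21) for 2-digit numbers. It was -0.21 (SE 0.22) without WT_CCg_28, the wild-type library highest in Zdhhc20, and between that and -0.59, the value without KO_CCg_29, with each other library left out in turn.

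Zdhhc2, a transferase of PSD-95, had 24.3, 35.6 and 42.8 CPM as lowest, median and highest in knockout callosa, against 22.3, 27.6, 28.4, 29.6 and 30.8 CPM in wild-type callosa. Of the 6 knockout libraries 4 lay above the wild-type range and the other two lay within it, and the log2 fold change did not pass (0.27, SE 0.16, adjusted p = 0.499). Zdhhc4 had 18.2, 21.0 and 22.5 CPM as lowest, median and highest in knockout callosa, against 21.2, 24.5, 24.9 and 24.9 CPM in 4 of the wild-type callosa, and the fifth and the lowest of these lay inside the knockout range (log2 fold change -0.17, SE 0.10, adjusted p = 0.493). The 1 member past 0.5 was Zdhhc22, at 0.67 with a wide 95% interval of -0.56 to 1.90. Its log2 fold change was 0.72 (SE 0.27) among the longer numbers and -0.35 (SE 0.58) among the 2-digit ones. All 12 neuron markers had a higher fitted level in knockout than in wild-type callosum and all 12 oligodendrocyte markers a lower one, with median log2 fold changes of 0.65 and -0.50. By edgeR 0 of 12 passed in either list, while at an unadjusted p under 0.05 there were 4 neuron and 9 oligodendrocyte markers, DESeq2 called 0 and 1, and weighted limma-voom called 10 in each (beside its 18% of all genes). Striatal projection neuron markers, 8 genes from the tissue below the callosum, summed to between 549.7 and 1449 CPM in knockout callosum against 323 to 721 CPM in wild-type callosum, and microglial markers, 7 genes, to between 338.5 and 409 CPM in knockout callosum against 427 to 508 CPM in wild-type callosum. All 8 striatal markers had a higher fitted level in knockout callosum and all 7 microglial ones a lower one, with median log2 fold changes of 0.85 and -0.34. By edgeR 0 passed in either list. At an unadjusted p under 0.05 there were 8 striatal and 5 microglial markers (beside 11.7% of all genes). DESeq2 called 2 in each list, and weighted limma-voom called 8 and 4 (beside 18% of all genes). The part of striatal cells and microglia in the members' values was not tested. With neuron marker level added to the fit, the log2 fold change was -0.03 (SE 0.15) for Zdhhc20, -0.15 (SE 0.09) for Selenok, 0.22 (SE 0.11) for Zdhhc13 and -0.43 (SE 0.30) for Zdhhc22, and for Zdhhc2 it was 0.12 (SE 0.15), or -0.06 (SE 0.11) with number format added too. With oligodendrocyte marker level in its place it was 0.17 (SE 0.26) for Zdhhc20, -0.09 (SE 0.17) for Zdhhc2 and 0.02 (SE 0.10) for Zdhhc4, each of the opposite sign, -0.04 (SE 0.12) for Selenok and 0.14 (SE 0.14) for Zdhhc13.

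**Figure D2:**
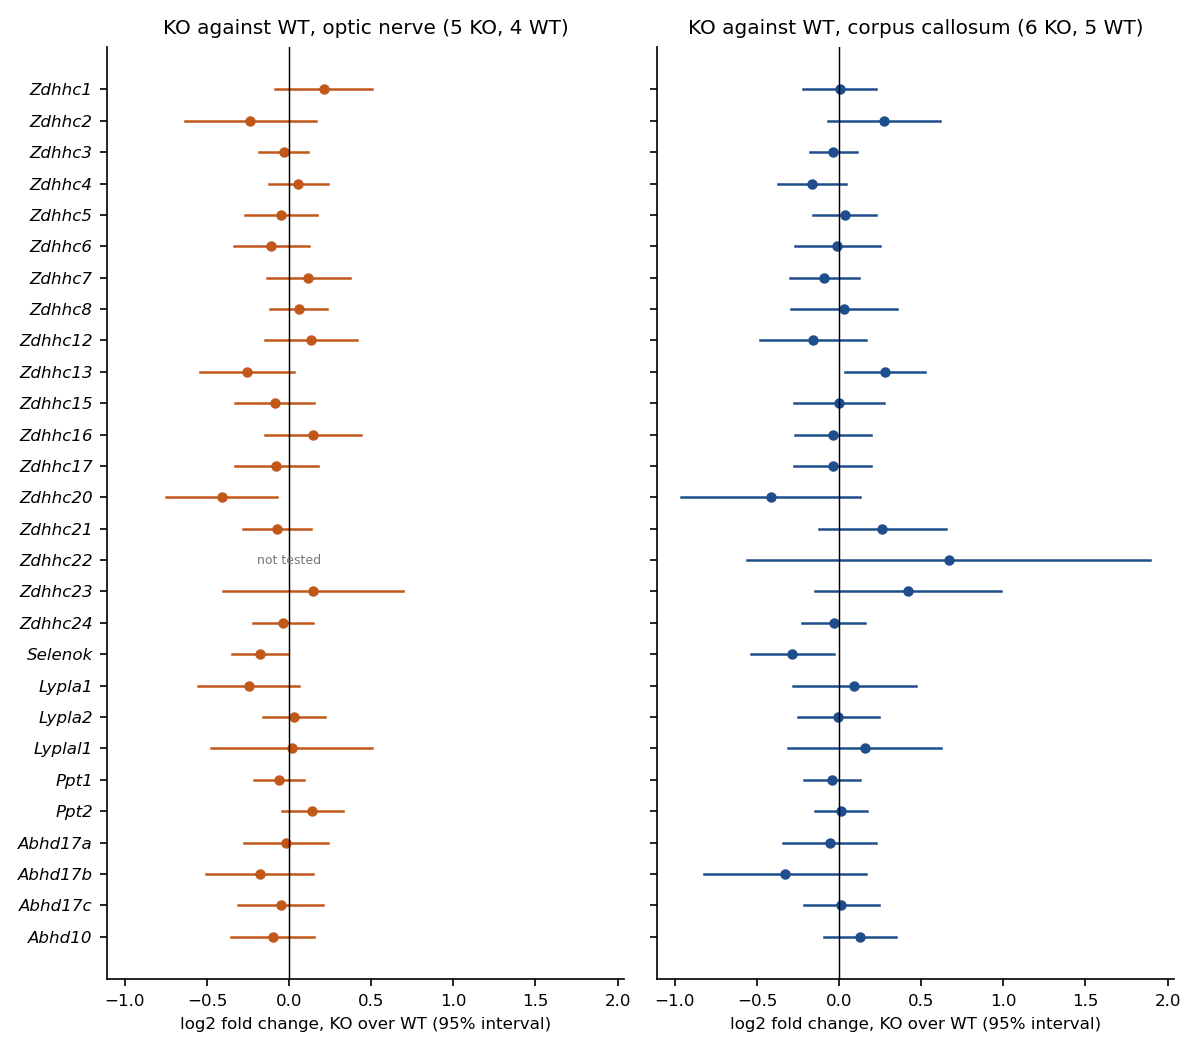
Log2 fold change of knockout over wild type (points) with its 95% interval (lines) for each tested member in optic nerve (left, 5 against 4 libraries) and corpus callosum (right, 6 against 5). Every point lies within 0.5 of 0 except Zdhhc22 in the callosum, at 0.67, and Zdhhc22 was not tested in the optic nerve.

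The difference of the knockout effect between optic nerve and callosum was tested in 1 fit of all 20 libraries. It called 0 of 28 members and 0% of all genes, DESeq2 and limma-voom with sample quality weights also called 0 members, and 1 member (3.57%, beside 6.83% of all genes) had an unadjusted p under 0.05. That member was Zdhhc13, with a difference of log2 fold changes of -0.53 (SE 0.16, 95% interval -0.87 to -0.20, unadjusted p = 0.00356, adjusted p = 0.725), lower in knockout than wild type in the optic nerve and higher in the callosum. Zdhhc2 came next at -0.50 (SE 0.25, adjusted p = 0.729) and then Zdhhc4 at 0.23 (SE 0.12, adjusted p = 0.74). Zdhhc21, which palmitoylates the kinases Fyn and Lck, had 30.8, 36.7, 37.6, 38.4 and 38.9 CPM in knockout optic nerves, against 35.8, 36.3, 38.9 and 41.1 CPM in wild-type optic nerves, and ranged more widely in the callosum, between 37.3 and 65.2 CPM in the knockout and 30.3 and 56.3 CPM in the wild type. Its difference of effects was -0.33 (SE 0.22, adjusted p = 0.77). Abhd10, a mitochondrial depalmitoylase, lay between 11.6 and 15.5 CPM in knockout optic nerves, against 12.95 to 15.6 CPM in wild-type ones, and between 13.2 and 17.6 CPM in knockout callosa, against 12.8 to 16.2 CPM in wild-type ones. Its difference of effects was -0.22 (SE 0.15, adjusted p = 0.77).

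More members passed between tissues than between genotypes. With a limit of 1 on the size of the log2 fold change, Zdhhc22 and Zdhhc23 fell in wild-type optic nerve against wild-type callosum, 2 of 28 members (7.14%) beside 26.2% of all genes in both directions and 13.2% lower, and none rose. In knockout optic nerve against knockout callosum Zdhhc22, Zdhhc23 and Zdhhc2 fell, 3 of 28 (10.7%) beside 30.1% of all genes in both directions and 15.2% lower, and again none rose. The groups compared in the wild type share no library with those compared in the knockout. Both contrasts came from 1 fit of all 20 libraries, so their estimates of spread were shared and their p-values were not independent. With no limit on the fold change, 19 members passed in the knockout, 67.9% beside 62.9% of all genes, with 10 higher in optic nerve (beside 31.9% of all genes) and 9 lower (beside 31%). In the wild type 15 passed, 53.6% beside 51.3% of all genes, with 9 higher (beside 25.3%) and 6 lower (beside 26%). So the shares past the adjusted p were near those of all genes and the share past the fold limit was below it. The groups were apart in 7 members in the wild type (25%, beside 42.5% of all genes) and 9 in the knockout (32.1%, beside 43.5%).

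Zdhhc22 had 0.241, 0.342, 0.366, 0.639 and 1.14 CPM in knockout optic nerves, and 1.07, 7.82 and 10.02 CPM as lowest, median and highest in knockout callosa. It had 0.167, 0.230, 0.427 and 0.577 CPM in wild-type optic nerves, against 1.096, 2.82, 3.32, 5.83 and 6.85 CPM in wild-type callosa. The tissues did not overlap in wild-type mice, and in knockout mice the highest optic nerve library just passed the lowest callosum library. The log2 fold change was -3.59 (SE 0.62, adjusted p = 4.06e-05) in the knockout and -3.52 (SE 0.71, adjusted p = 0.000307) in the wild type. The optic nerve values were near the floor, so the size of these falls is uncertain. Zdhhc23, a transferase that binds neuronal nitric oxide synthase, had 2.66, 2.69, 3.17, 3.20 and 3.45 CPM in knockout optic nerves, against 4.98, 8.25 and 11.97 CPM as lowest, median and highest in knockout callosa. It had 1.55, 2.76, 2.94 and 3.57 CPM in wild-type optic nerves, against 3.56, 5.03, 5.99, 6.82 and 9.71 CPM in wild-type callosa. The tissues were apart in the knockout and touched at one library of each tissue in the wild type, with log2 fold changes of -1.47 (SE 0.25, adjusted p = 3.98e-05) and -1.20 (SE 0.28, adjusted p = 0.0012).

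The subfamily of Zdhhc2, Zdhhc15 and Zdhhc20 split between the tissues. Zdhhc2 had 9.60, 11.8, 11.85, 12.8 and 17.9 CPM in knockout optic nerves, against 24.3, 35.6 and 42.8 CPM as lowest, median and highest in knockout callosa, and 12.4, 13.4, 15.6 and 18.4 CPM in wild-type optic nerves, against 22.3 to 30.8 CPM in wild-type callosa. It was lower in every optic nerve library than in any callosum library of the same genotype, with log2 fold changes of -1.40 (SE 0.17, adjusted p = 6.1e-07) in the knockout and -0.89 (SE 0.19, adjusted p = 0.00045) in the wild type. Zdhhc15, which like Zdhhc2 palmitoylates PSD-95, went the other way. It had 10.7, 11.04, 11.7, 11.9 and 11.96 CPM in knockout optic nerves, against 5.99, 7.06 and 7.57 CPM as lowest, median and highest in knockout callosa. In wild-type mice it had 10.5, 11.3, 12.3 and 14.05 CPM in optic nerves, against 5.87, 6.15, 6.28, 7.41 and 8.63 CPM in callosa. Its libraries were higher in optic nerve without overlap in both genotypes, with log2 fold changes of 0.73 (SE 0.11, adjusted p = 7.68e-06) and 0.81 (SE 0.12, adjusted p = 1.16e-05). The transcripts of Zdhhc2 and Zdhhc15 share no 31-base word, so reads of one can be told from the other. Zdhhc20 had log2 fold changes of 0.25 (SE 0.22, adjusted p = 0.331) in the knockout and 0.24 (SE 0.24, adjusted p = 0.444) in the wild type.

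**Figure D3:**
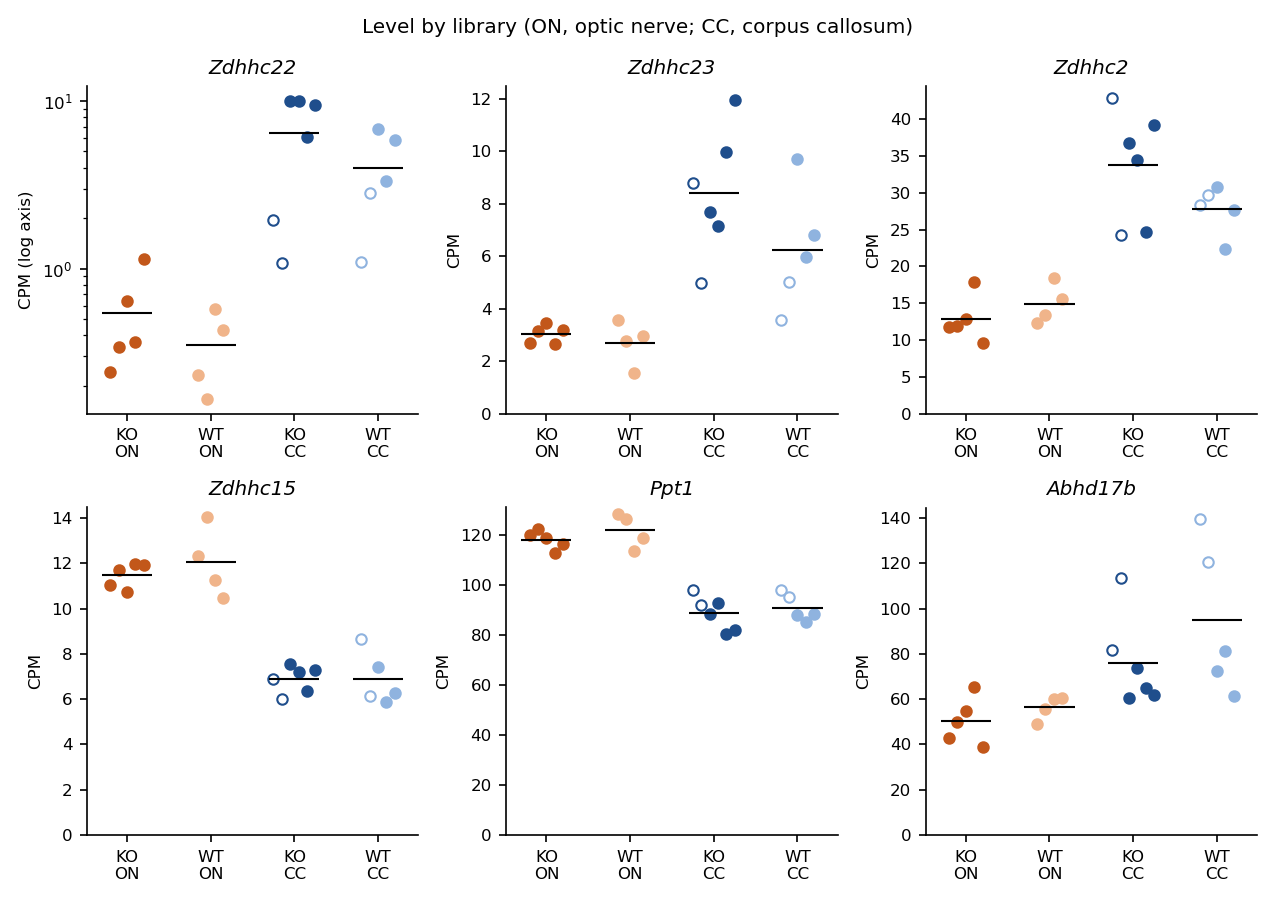
Level in CPM of each library (points; open points have 2-digit sample numbers) and group mean (bars) of 6 members in knockout and wild-type optic nerve (ON) and corpus callosum (CC); the axis of Zdhhc22 is logarithmic. Zdhhc2 and Zdhhc15 differ between tissues in opposite directions without overlap, and open callosum points are the lowest of Zdhhc22 and the highest of Abhd17b within their genotype.

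Among the enzymes that remove palmitate, Ppt1 was higher in optic nerve, at 118 ± 3.68 CPM in knockout optic nerve against 89.1 ± 6.77 CPM in knockout callosum and at 122 ± 6.95 CPM in wild-type optic nerve against 91.1 ± 5.44 CPM in wild-type callosum (SD, n = 5, 6, 4 and 5). Its tissues did not overlap in either genotype, and the log2 fold changes were 0.41 (SE 0.07, adjusted p = 1.75e-05) in the knockout and 0.42 (SE 0.07, adjusted p = 5.89e-05) in the wild type. Abhd17b, a relative of Abhd17a with the same substrates, had 38.9, 42.7, 49.7, 54.6 and 65.2 CPM in knockout optic nerves, against 60.4, 69.2 and 113 CPM as lowest, median and highest in knockout callosa. In wild-type mice it had 49.2, 55.9, 59.9 and 60.6 CPM in optic nerves, against 61.6, 72.5, 81.3, 120.5 and 139.6 CPM in callosa. The log2 fold changes were -0.60 (SE 0.20, adjusted p = 0.0147) and -0.75 (SE 0.23, adjusted p = 0.00845). Against the longer-number callosum libraries alone the wild-type value was -0.35 (SE 0.15, adjusted p = 0.0622). Abhd17c was lower in optic nerve as well, by -0.46 (SE 0.11) in the knockout and -0.41 (SE 0.12) in the wild type, and Abhd17a was at -0.04 (SE 0.13) and -0.09 (SE 0.14), with adjusted p = 0.803 and 0.645. Lypla1 passed in the wild type alone, at 0.57 (SE 0.18, adjusted p = 0.00998) against 0.24 (SE 0.16, adjusted p = 0.197) in the knockout, and the difference between those 2 effects did not pass (adjusted p = 0.788).

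Zdhhc13 and Zdhhc12 are given because they were among the 6 members with the largest tissue difference in the knockout, a choice made after the values were seen. Zdhhc13 fell by 0.68 on the log2 scale in knockout optic nerve against knockout callosum (SE 0.11, adjusted p = 1.92e-05), without overlap, and was at -0.14 (SE 0.12, adjusted p = 0.336) in the wild type. Zdhhc12, which in human cells palmitoylates the inflammasome protein NLRP3, had 11.2, 13.1, 13.2, 14.2 and 15.9 CPM in knockout optic nerves, against 6.57, 8.29 and 10.1 CPM as lowest, median and highest in knockout callosa. All the optic nerve libraries lay above the callosum ones, and the log2 fold change was 0.72 (SE 0.13, adjusted p = 0.000102), with 0.42 (SE 0.15, adjusted p = 0.0228) in the wild type. Zdhhc17 fell in both, by 0.42 (SE 0.11) in the knockout and by 0.39 (SE 0.12) in the wild type, and Zdhhc4, Zdhhc5, Zdhhc24 and Selenok were higher in optic nerve in both, with log2 fold changes between 0.21 and 0.48. The paired Golgi transferases Zdhhc3 and Zdhhc7, which palmitoylate a GABA-A receptor subunit, passed in the knockout, at 0.15 (SE 0.06, adjusted p = 0.0301) and 0.29 (SE 0.10, adjusted p = 0.0195), and stood at 0.14 (SE 0.06, adjusted p = 0.0807) and 0.08 (SE 0.12, adjusted p = 0.617) in the wild type. Zdhhc1 was at 0.36 (SE 0.11, adjusted p = 0.00892) in the knockout and 0.15 (SE 0.13, adjusted p = 0.335) in the wild type, and none of the 28 members passed the test of the difference between those effects. Zdhhc21 and Abhd10 were lower in knockout optic nerve than in knockout callosum, at -0.56 (SE 0.15, adjusted p = 0.00285) and -0.24 (SE 0.10, adjusted p = 0.0386). In the wild type neither passed, at -0.22 (SE 0.16, adjusted p = 0.275) and -0.02 (SE 0.11, adjusted p = 0.89). Ppt2, Lyplal1 and Lypla2, the acyl-protein thioesterase 2, were the tested members that passed in none of the comparisons made. Lypla2 averaged 38.1 ± 2.34 CPM in knockout optic nerve and 36.8 ± 3.62 CPM in wild-type optic nerve, and 43.1 ± 5.78 CPM in knockout callosum and 42.9 ± 5.65 CPM in wild-type callosum (SD, n = 5, 4, 6 and 5).

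Other cell types differed between the tracts along with these members. The neuron markers summed to between 233 and 465 CPM in knockout optic nerve against 1350 to 4660 CPM in knockout callosum, and to between 262 and 441 CPM in wild-type optic nerve against 1186 to 3299 CPM in wild-type callosum, with none of the 12 under 1 CPM in any group. The fibroblast and meningeal markers, 7 genes, ran between 2851 and 4987 CPM in knockout optic nerve against 32.5 to 86.8 CPM in knockout callosum, and between 2610 and 4259 CPM in wild-type optic nerve against 38.4 to 81.6 CPM in wild-type callosum. The astrocyte markers, 7 genes, ran between 8339 and 11700 CPM in knockout optic nerve against 3375 to 4446 CPM in knockout callosum, and between 8199 and 10870 CPM in wild-type optic nerve against 3792 to 4676 CPM in wild-type callosum. Sums of microglial (7 genes) and endothelial (5 genes) markers were also higher in optic nerve without overlap, at 829.5 CPM or more and 282 CPM or more in every optic nerve library against at most 508 CPM and 205 CPM in every callosum library. The part of these cells in the members' tissue differences was not tested.

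**Figure D4:**
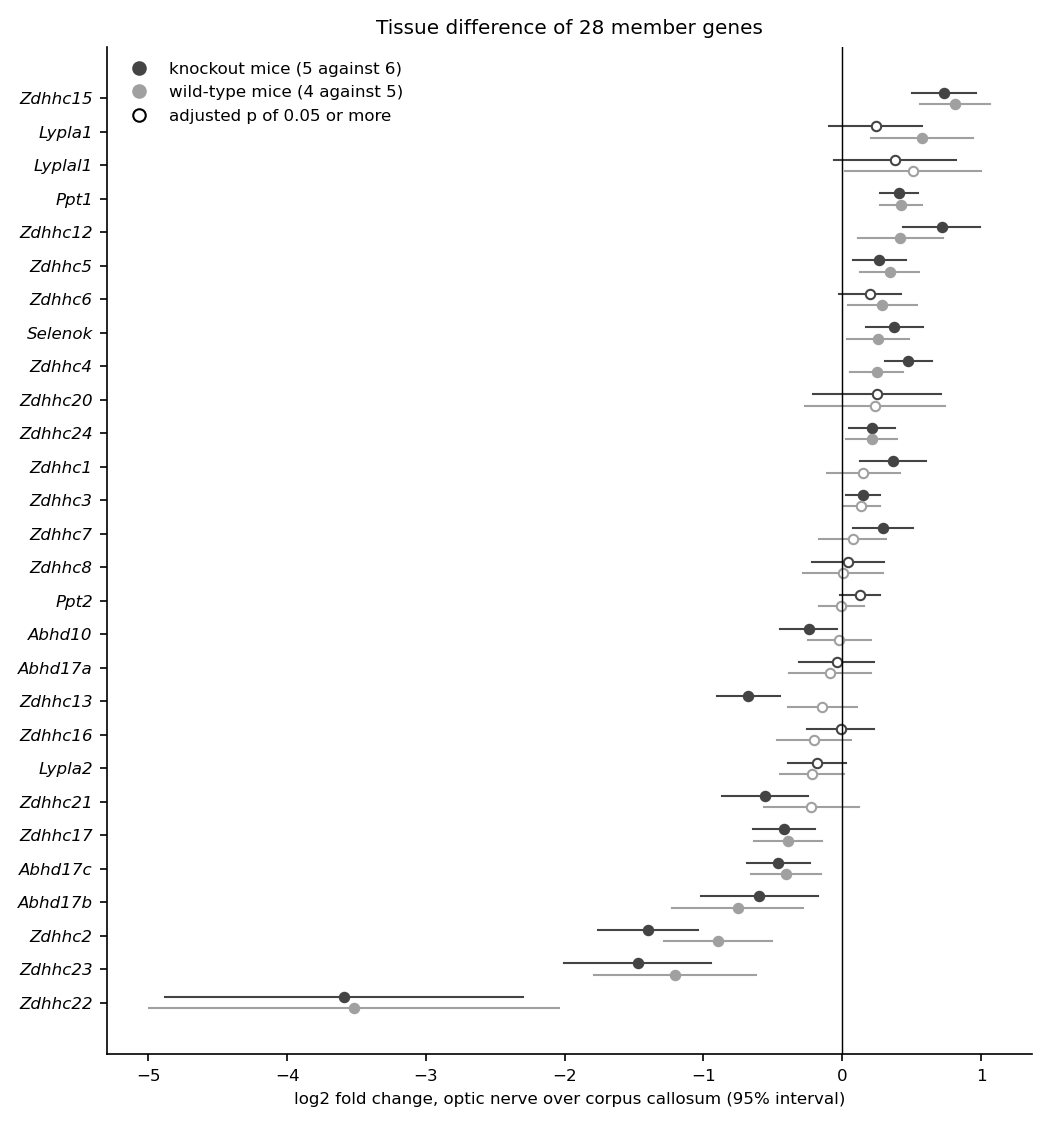
Log2 fold change of optic nerve over corpus callosum (points) with its 95% interval (lines) for 28 members, in knockout mice (dark, above) and wild-type mice (light, below); open points have an adjusted p of 0.05 or more. Zdhhc22 lies near -3.5 in both genotypes, and the highest member in wild-type mice is Zdhhc15 at 0.81.

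In the callosum more members passed between the formats of the sample number than between genotypes. With genotype in the fit, 11 of 28 members passed between the 7 libraries with longer numbers and the 4 with 2 digits (39.3%, beside 26.6% of all genes), 4 of them higher (beside 12.8% of all genes) and 7 lower (beside 13.8%) in the longer format. The formats were apart in 8 members (28.6%, beside 12.6% of all genes). Each format holds libraries of both genotypes.

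Zdhhc20 had 82.0, 88.3 and 115 CPM as lowest, median and highest in the longer-number libraries, against 122.5, 165, 168 and 218 CPM in the 2-digit ones. The formats did not overlap, and the log2 fold change was -0.82 (SE 0.11, adjusted p = 0.00217). Abhd17b had 60.4, 64.9 and 81.3 CPM in the longer-number libraries, against 81.9, 113, 120.5 and 139.6 CPM in the 2-digit ones (log2 fold change -0.71, SE 0.11, adjusted p = 0.00324). Zdhhc8, a transferase of the plasma membrane, was higher, with 62.1, 69.1 and 77.8 CPM in the longer-number libraries, against 45.9, 50.3, 50.5 and 52.9 CPM in the 2-digit ones, without overlap (log2 fold change 0.47, SE 0.08, adjusted p = 0.00353). Zdhhc22 had 3.32, 6.85 and 10.02 CPM in the longer-number libraries, against 1.07, 1.096, 1.94 and 2.82 CPM in the 2-digit ones (log2 fold change 1.98, SE 0.35, adjusted p = 0.00418).

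The other 7 differed by less than 0.5 on the log2 scale. Abhd17c had 25.1, 26.1 and 27.5 CPM in the longer-number libraries, against 28.5, 30.4, 30.9 and 35.1 CPM in the 2-digit ones, lower without overlap (log2 fold change -0.26, SE 0.07, adjusted p = 0.0225). Abhd17a had 67.2, 81.6 and 91.3 CPM in the longer-number libraries, against 55.6, 61.6, 70.0 and 73.1 CPM in the 2-digit ones, and so went the other way from its 2 relatives, with overlap (log2 fold change 0.33, SE 0.10, adjusted p = 0.0304). Lypla1 had 14.8, 19.7 and 23.9 CPM in the longer-number libraries, against 23.7, 23.7, 25.8 and 26.6 CPM in the 2-digit ones, nearly apart (log2 fold change -0.44, SE 0.13, adjusted p = 0.0258). Both members of the Zdhhc6 and Selenok complex were lower in the longer format. Zdhhc6 had 15.6, 17.0 and 20.01 CPM in the longer-number libraries, against 20.6, 21.0, 21.6 and 22.2 CPM in the 2-digit ones (log2 fold change -0.28, SE 0.09, adjusted p = 0.0374). Selenok had 81.2, 95.7 and 106 CPM in the longer-number libraries, against 88.5, 114, 127 and 137 CPM in the 2-digit ones (log2 fold change -0.28, SE 0.09, adjusted p = 0.0384). Zdhhc16, which palmitoylates Zdhhc6, was higher, with 17.8, 18.2 and 20.8 CPM in the longer-number libraries, against 14.3, 14.8, 16.1 and 17.5 CPM in the 2-digit ones (log2 fold change 0.25, SE 0.08, adjusted p = 0.041). Exons of Mms19 on the opposite strand cover 28.7% of the Zdhhc16 exons. Zdhhc17 had 102, 115 and 121 CPM in the longer-number libraries, against 122, 123, 134 and 154 CPM in the 2-digit ones (log2 fold change -0.24, SE 0.08, adjusted p = 0.0457).

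Neuron markers moved with the format: they summed to between 1757 and 4660 CPM with a median of 3299 in the longer-number libraries, against 1186 to 3033 CPM with a median of 1597 in the 2-digit ones, and 8 of the 12 passed as higher. Oligodendrocyte markers had medians of 54330 CPM in the longer-number libraries and 75600 CPM in the 2-digit ones, with 4 of 12 lower. With neuron marker level added to the fit, 0 of 28 members passed by edgeR, beside 140 of the 16228 genes tested. Without it 4320 of all genes passed, so the loss of calls was not particular to the members. At an unadjusted p under 0.05 there were 15 members without the neuron covariate (53.6%, beside 39.6% of all genes). With the covariate there were 12. The share of all genes in that fit was not taken, so the 12 cannot be read as particular to the members. The log2 fold changes there were -0.55 (SE 0.12) for Zdhhc20, -0.45 (SE 0.13) for Abhd17b, 0.46 (SE 0.11) for Zdhhc8 and 1.02 (SE 0.31) for Zdhhc22, with adjusted p-values between 0.0547 and 0.0873. Leaving out each of the 11 libraries in turn, Zdhhc8, Zdhhc20, Zdhhc22 and Abhd17b passed every time, while the other 7 calls were lost in 3 to 9 of the 11 fits. All 7 were lost without WT_CCg_28.

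**Figure D5:**
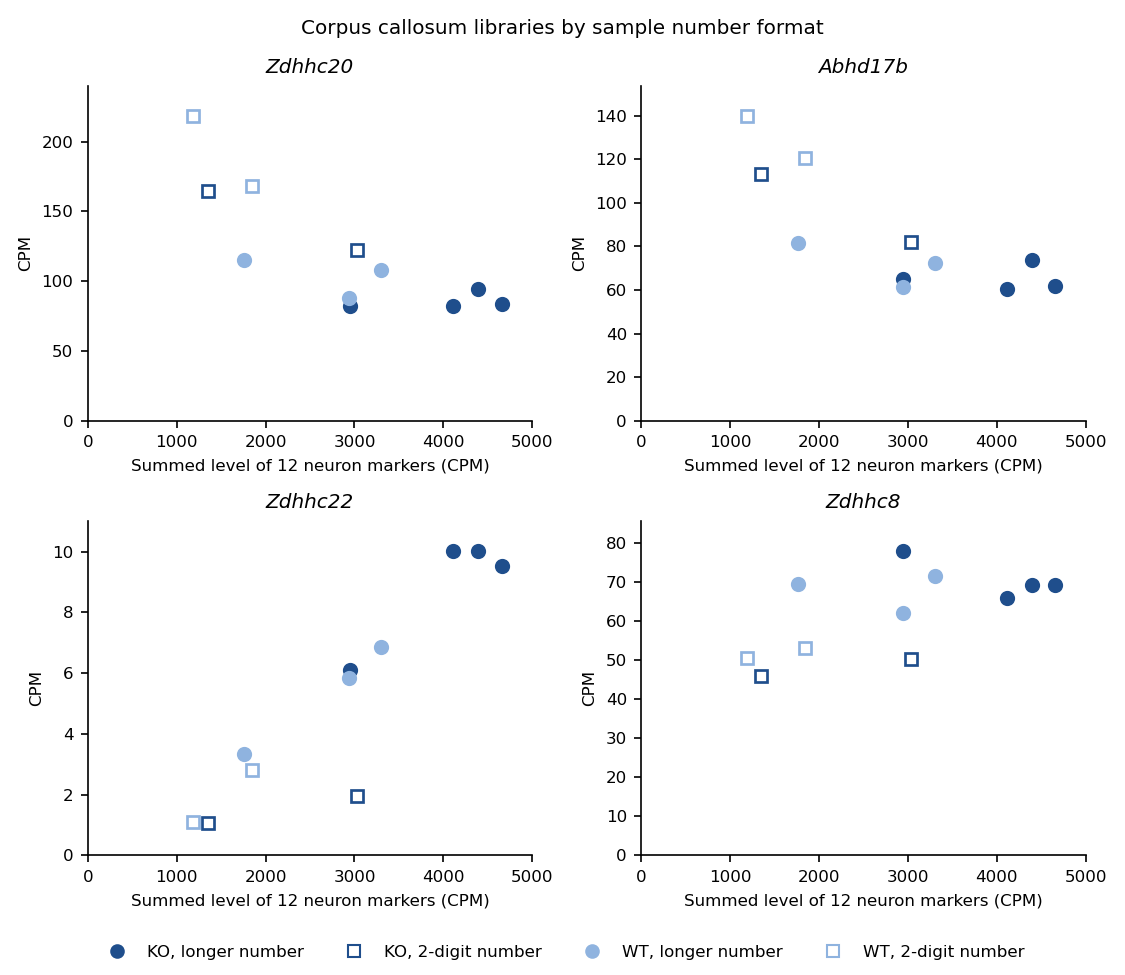
Level in CPM of 4 members against the summed level of 12 neuron markers in the 11 corpus callosum libraries; circles have longer sample numbers and squares 2-digit ones, dark for knockout and light for wild type. All 4 squares lie above the circles for Zdhhc20 and Abhd17b and below them for Zdhhc22 and Zdhhc8.

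Genes around the reaction were taken as further lists. Of the 4 other Zdhhc relatives and partners beside Zdhhc9, which are Zdhhc14, Zdhhc18 and the Zdhhc9 cofactors Golga7 and Golga7b, none passed between genotypes in either tissue by edgeR or DESeq2. In the callosum Golga7 had an unadjusted p under 0.05 and weighted limma-voom called 1 of the 4. Golga7 was at -0.25 (SE 0.12, adjusted p = 0.845) in the optic nerve and -0.46 (SE 0.17, adjusted p = 0.39) in the callosum. The supply of palmitoyl-CoA was a list of 11 genes, such as fatty acid synthase (Fasn), acetyl-CoA carboxylase (Acaca) and the acyl-CoA synthetase Acsl1. By edgeR 0 of 11 passed between genotypes in either tissue. At an unadjusted p under 0.05 there were 5 in the callosum (beside 11.7% of all genes) and 0 in the optic nerve (beside 5.48%). DESeq2 called 0, and weighted limma-voom called 5 of 11 in the callosum (beside the same 18% of all genes as above). In the callosum Acaca was at -0.30 (SE 0.10, adjusted p = 0.346) and Fasn at -0.28 (SE 0.10, adjusted p = 0.381). Of 38 palmitoylated proteins edgeR called 0 in either tissue. At an unadjusted p under 0.05 there were 6 in the callosum (beside 11.7% of all genes) and 1 in the optic nerve (beside 5.48%). DESeq2 called 0, and weighted limma-voom called 17 of 38 in the callosum (beside 18% of all genes). Of 12 genes of the neuronal ceroid lipofuscinoses, the disease group of Ppt1, edgeR and DESeq2 called 0 between genotypes in either tissue. At an unadjusted p under 0.05 edgeR had 4 in the callosum (beside 11.7% of all genes) and 2 in the optic nerve (beside 5.48%). Weighted limma-voom called 4 of 12 in the callosum (beside 18% of all genes). Between tissues in wild-type mice, where 25.3% of all genes were higher and 26% lower in optic nerve, 3 supply genes were higher and 3 lower in optic nerve, as were 9 and 13 palmitoylated proteins, with the tetraspanin Cd151 at 2.37 (SE 0.15, adjusted p = 1.55e-10). Among the ceroid lipofuscinosis genes 7 were higher and 3 lower, with progranulin (Grn) at 0.97 (SE 0.12, adjusted p = 1.48e-06) and the lysosomal protease cathepsin D (Ctsd) at 0.95 (SE 0.16, adjusted p = 5.25e-05).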

How the data were processed

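The authors' deposited table holds estimated counts per gene, not whole numbers throughout, with the build mm10 per the submitters' processing notes; per the labels' protocols, libraries were made with a stranded mRNA kit. The counting tool's settings are not given in the labels. Estimated counts were rounded and fitted over the whole table with edgeR 4.0.16 (R 4.3.3; genes kept by filterByExpr with a minimum of 10 counts and 15 in total; TMM factors; quasi-likelihood test; adjusted p under 0.05, and for tissues also a log2 fold change of at least 1). Genotype was fitted within each tissue, tissue and the difference of effects over all 20 libraries, and number format over the 11 callosum libraries with genotype. CPM used TMM factors of all 20 libraries, and levels per kilobase used the exon union. limma 3.58.1 and DESeq2 1.42.0 were alternatives. Symbols were matched for 46005 of 46517 genes. The test was tried on simulated counts. Members and lists were chosen with earlier results of these data known. Every member is accounted for, and values by library are given for members called between genotypes or formats, otherwise for the 5 smallest p of each genotype comparison and of the difference of effects, and for the 6 largest changes between tissues in the wild type.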

Additional observations from a re-analysis of the deposited data

Results flagged for a closer look

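A single library stood far from the rest of its group in 5 of the 110 combinations of member and group examined, against about 1 in 20 that chance gives, and they concern 4 members. Zdhhc6 had 25.71 CPM in library KO_ON_48118A4, while the other knockout optic nerves lay between 19.69 and 21.11 CPM. Zdhhc21 had 30.78 CPM in library KO_ON_48038A7, below the other knockout optic nerves at 36.68 to 38.86 CPM. Zdhhc24 had 24.07 CPM in library KO_CCg_717651, above the other knockout callosa at 19.33 to 21.04 CPM. Abhd17c had 35.12 CPM in library KO_CCg_27, above the other knockout callosa at 25.31 to 28.5 CPM, and 25.42 CPM in library WT_ON_719857, above the other wild-type optic nerves at 18.82 to 19.72 CPM.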

How the results depend on the processing

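The counts of members called between knockout and wild type stayed at 0 in optic nerve, in callosum and for the difference of effects under each alternative run, leaving out any 1 library included (0 to 0), except that limma-voom with sample quality weights called 3 in callosum. Without the fold limit 15 members passed between tissues in the wild type and 19 in the knockout. Leaving out 1 library gave 1 to 3 members in the wild type and 3 to 3 in the knockout. Without WT_CCg_685232 Zdhhc22 alone remained, with Zdhhc23 at -0.99, and without WT_ON_717652 Zdhhc2 was added. The count of 11 between number formats was 6 with no filter on low counts, 0 with neuron markers as a covariate, and 4 to 9 with 1 library left out, lowest at 4 without WT_CCg_28, 5 without KO_CCg_29 and 6 without WT_CCg_7198587. In callosum, knockout against wild type, the sign turned with oligodendrocyte markers as a covariate for Zdhhc4 (0.022), Zdhhc2 (-0.092) and Zdhhc20 (0.168), and with format and neuron covariates for Zdhhc2 (-0.063). The causes were not tested. Of the other values of single members, 281 kept direction and side of the threshold, 26 no longer passed and 3 newly passed. The 26 were calls between formats, 11 of them under the neuron covariate, except Abhd17b between tissues in the wild type with longer-number callosum alone and Zdhhc12 in the knockout in edgeR's fit of shared numbers. With 1 library left out 514 kept both and 47 no longer passed, all between formats. The labels do not say whether a sample number shared by the tissues means the same animal. Deviations of same-numbered libraries from their group means correlated between -0.153 and 0.134, and 1 of 4 matched its own number best. With 4 numbers and 2 different tissues this cannot decide the question, and the main fits did not pair the libraries. With the replicate block limma-voom called 2 members between tissues in the wild type, 3 in the knockout and 0 for the difference of effects. No paired analysis was possible within a tissue because knockout and wild type share no number there. Depth limits Zdhhc22 in optic nerve, with 4 to 20 counts per library.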

Other observations

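Relatives outside the 31 genes differed between the tracts too. Golga7b, one of the Golga7 accessory proteins of the family, fell in optic nerve against callosum, with log2 fold changes of -3.60 in the knockout (SE 0.43, adjusted p = 4.08e-07) and -3.83 in the wild type (SE 0.49, adjusted p = 1.81e-06), a size close to that of Zdhhc22. Zdhhc18, a Golgi transferase, was higher in optic nerve, at 0.94 in the knockout (SE 0.10, adjusted p = 1.47e-07) and 0.72 in the wild type (SE 0.11, adjusted p = 2.38e-05). Of the 4 listed genes of the membrane-bound O-acyltransferase family 3 were tested. Hhatl, named for its likeness to Hhat, alone passed between tissues, at 2.42 in the knockout (SE 0.14, adjusted p = 1.77e-11) and 2.09 in the wild type (SE 0.16, adjusted p = 1.06e-09). Between number formats in the callosum Golga7b was higher in the longer format (1.14, SE 0.28, adjusted p = 0.0134) and Golga7 lower (-0.46, SE 0.12, adjusted p = 0.0183).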
